A study of Homo sapiens with 6 samples.

Results

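The 10 genes described here are transcriptional targets of the ERK pathway, most of which feed back on it: the phosphatase genes *DUSP4*, *DUSP5* and *DUSP6*, the Sprouty genes *SPRY2* and *SPRY4*, their relatives *SPRED1* and *SPRED2*, the ETS factor genes *ETV4* and *ETV5*, and *PHLDA1*. They were taken by gene symbol from a deposited table of 58735 genes, and all 10 were found. RNA was sequenced from 3 libraries of wild strain TPC-1 cells, a line of human papillary thyroid carcinoma, and from 3 libraries of the same line overexpressing *RRM2*, the small subunit of ribonucleotide reductase (*RRM2*-OE-TPC-1). The overexpressing cells had been infected with a lentivirus that carries *RRM2* behind a CMV promoter and had then been selected with puromycin, whereas the wild strain is not described as infected or selected. No library with an empty vector was analysed here, so the effects of *RRM2* and of infection with selection cannot be told apart. Each group is described as a biological triplicate, and the genotype field of *RRM2*-OE-TPC-1 replicates 2 and 3 names other genes (RRM3 and RRM4) although their titles give *RRM2*.

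ERK is the last kinase of a chain in which activated receptor tyrosine kinases load RAS with GTP, RAS recruits RAF, RAF phosphorylates MEK and MEK phosphorylates ERK. Active ERK raises transcription of genes whose products then restrain the chain: dual-specificity phosphatases remove phosphate from ERK, and Sprouty and SPRED proteins act at the level of receptors, RAS and RAF. Because these transcripts follow ERK activity, several of them are used as a readout of pathway output in tumors, and the chain is the one most often activated in papillary thyroid carcinoma. TPC-1 carries a *CCDC6*-*RET* fusion, which drives the chain from its receptor end.

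Values are FPKM, per the methods read counts divided by gene length and sequencing depth, so that levels of different genes can be compared. The 6 libraries held 14317091 to 17084067 reads on genes. The depths that the deposited values imply were 1.03 to 1.05 times these reads in TPC-1 and 0.997 to 1.01 times in *RRM2*-OE-TPC-1. They followed the median-of-ratios factors of the libraries, so the values already carry a scaling between libraries. Scaling to library totals, used below as an alternative, does not carry it. Differences were tested with limma, which fits all genes together, after the transformation log2(FPKM + 0.1), and p was adjusted over the 13621 genes with at least 0.5 FPKM and 10 reads in at least 3 libraries. A gene is called higher or lower in *RRM2*-OE-TPC-1 at an adjusted p of 0.05 or less. *RRM2* itself had 8.52 to 9.17 FPKM in TPC-1 and 47.2 to 50.4 FPKM in *RRM2*-OE-TPC-1, with viral and endogenous copies counted together. Exons of *AC007240.1* share 20.2% of its exonic bases, at a mean of 0.466 FPKM. Of the thyroid markers, *PAX8* and *FOXE1* were present and lower in *RRM2*-OE-TPC-1 (log2 fold changes -0.24 and -0.42, adjusted p = 5.46e-04 and 4.38e-04 from limma), whereas *TG*, *TSHR* and *SLC5A5* had at most 0.113 FPKM in any library and *NKX2-1* was listed at 0. *TG*, below the minimum for the test, was higher in the overexpressing libraries without overlap. It had 5 to 9 reads per library in TPC-1 and 10 to 20 in *RRM2*-OE-TPC-1. The 7 thyroid markers summed to 71.5 to 75.3 FPKM over the TPC-1 libraries and 59.7 to 63.1 FPKM over the overexpressing ones. *PAX8* alone made up 67.3 to 70.8 and 56.3 to 59.8 FPKM of these sums. Of 4 epithelial markers, 2 were tested and both were higher, *KRT8* by 0.43 and *KRT18* by 1.05 on the log2 scale. The others, *EPCAM* and *CDH1*, were below the minimum for the test, with at most 0.125 FPKM in any library. Without overlap of the groups, *EPCAM* was higher and *CDH1* lower in the overexpressing libraries. The 4 markers summed to 41.8 to 45.8 FPKM over the TPC-1 libraries and 87.2 to 89.6 FPKM over the overexpressing ones. *KRT18* alone made up 39.4 to 43.0 and 83.7 to 85.9 FPKM of these sums. Of 9 markers of leukocytes, endothelium and fibroblasts, 3 were tested, of which *PECAM1* and *COL1A1* were lower and *PDGFRB* did not pass. *PECAM1* entered the test only through its TPC-1 libraries. Those not tested had at most 0.0996 FPKM in any library and moved in both directions. The summed level of the 9 was 3.83 to 4.04 FPKM over the TPC-1 libraries and 2.93 to 3.04 FPKM over the overexpressing ones; *CD3E* was at 0 in all libraries, and the part of all these markers in the results was not tested. In a bulk library, a small change in every cell and a large change in some of the cells cannot be told apart.

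Of the 10 genes, 7 were lower in *RRM2*-OE-TPC-1, against 32.7% of all tested genes called lower, and 0 were higher, against 34.9% of all tested genes called higher. Calls in either direction made up 67.6% of the tested genes. The 7 were *PHLDA1*, *SPRY2*, *DUSP5*, *ETV5*, *SPRY4*, *SPRED1* and *ETV4*, and the log2 fold changes reached from -1.002 for *PHLDA1* to -0.30 for *ETV4*. *DUSP4*, *SPRED2* and *DUSP6* did not pass the test. The median log2 fold change of the 10 was -0.37, and that of all 13621 tested genes was 0.011. All 10 genes were at or above 0.5 FPKM in all 6 libraries, so that none entered the test through one group alone. The libraries of the groups did not overlap for 9 of the 10 genes, which also held for 72.2% of all tested genes, and in 8 the overexpressing libraries were the lower ones, against 35% of all tested genes. *PHLDA1*, *SPRY2*, *DUSP5* and *ETV5*, 4 of the 10, were called with a log2 fold change of -0.5 or less, against 18.7% of all tested genes. With a further threshold of 1 on the absolute log2 fold change, which 11.5% of all tested genes passed (6.97% lower and 4.48% higher), *PHLDA1* alone was left, and *SPRY2* at -0.99 lay just outside. *PHLDA1* was inside that threshold by a small margin, and dropped out of it, at -0.98, when TPC-1 replicate 3 or *RRM2*-OE-TPC-1 replicate 2 was left out. *SPRY2* passed it when TPC-1 replicate 1 (-1.01), *RRM2*-OE-TPC-1 replicate 1 (-1.01) or *RRM2*-OE-TPC-1 replicate 2 (-1.003) was left out.

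**Figure D1:**
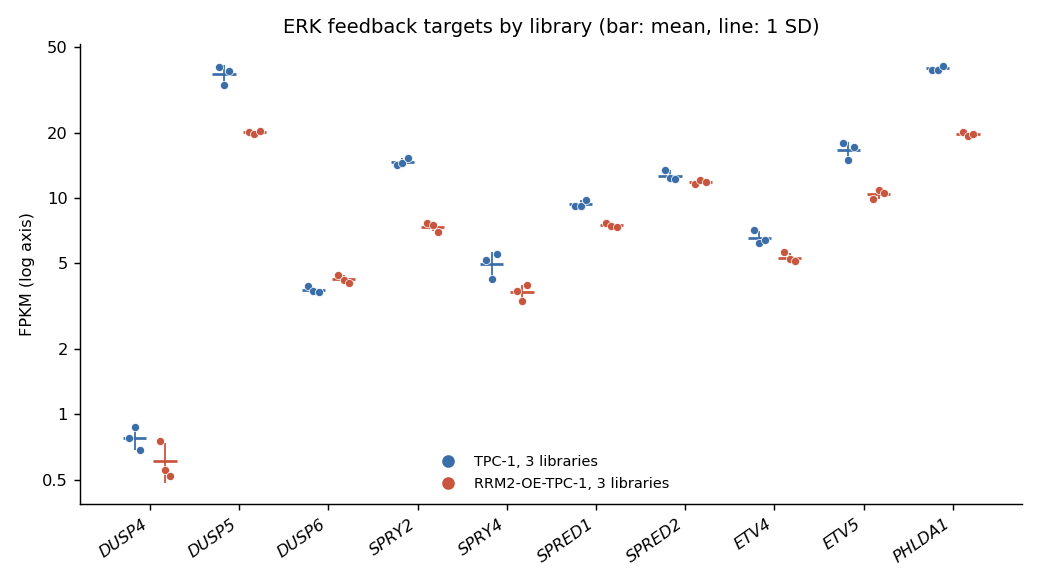
FPKM of the 10 feedback targets on a log axis, with 3 TPC-1 libraries in blue and 3 *RRM2*-OE-TPC-1 libraries in red; bars are means and vertical lines 1 SD. The red points lie below the blue ones for 8 genes, and above them for *DUSP6*; for *DUSP4* 2 red points lie below the blue ones and 1 lies among them.

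The dual-specificity phosphatases differed among themselves. *DUSP5* (ENSG00000138166, chromosome 10 from 110497838 to 110511544 of GRCh38, plus strand) encodes a nuclear phosphatase that is selective for ERK. Its FPKM was 40.5, 33.2 and 38.8 in the TPC-1 libraries and 20.3, 19.9 and 20.4 in the *RRM2*-OE-TPC-1 libraries. Every overexpressing library was below the lowest TPC-1 library, and TPC-1 replicate 2 was the lowest of its group. The mean fell to 53.8% of that in TPC-1, a log2 fold change of -0.89 (standard error 0.0690, 95% interval -1.05 to -0.73, adjusted p = 1.16e-05 from limma).

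*DUSP6* (ENSG00000139318, chromosome 12 from 89347232 to 89353271, minus strand) encodes the cytoplasmic counterpart, the phosphatase most often measured as a sign of ERK activity. It had 3.91, 3.72 and 3.68 FPKM in TPC-1 and 4.42, 4.20 and 4.04 FPKM in *RRM2*-OE-TPC-1. The groups did not overlap, and the overexpressing libraries were the higher ones by a small margin. The log2 fold change of 0.16 (standard error 0.0647, 95% interval 0.0076 to 0.31) had an unadjusted p of 0.0417 in limma, 0.0603 after adjustment, and was not called; under the alternatives tried it stayed between 0.10 and 0.19 and was never called. Exons of the antisense gene *AC024909.2* cover 40.5% of the exonic bases of *DUSP6*, at a mean of 0.0565 FPKM, and the methods do not say whether strand was used in counting.

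*DUSP4* (ENSG00000120875, chromosome 8 from 29333064 to 29350668, minus strand) encodes a nuclear phosphatase that acts on ERK and other MAP kinases. It was the least abundant of the 10 genes, with 0.776, 0.877 and 0.683 FPKM in TPC-1 and 0.753, 0.555 and 0.519 FPKM in *RRM2*-OE-TPC-1. Between 60 and 107 reads per library stood behind these values, and the groups overlapped. The log2 fold change of -0.32 had a wide interval of -0.73 to 0.098 (adjusted p = 0.150 from limma). When the recovered reads were analysed with voom, the value was -0.38 and lay at the threshold, with an adjusted p of 0.0500 from limma.

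Within this family the ratio of *DUSP6* to *DUSP5* moved most, as these had the highest and the lowest log2 fold change of the 3. The shift restates those changes, 0.16 and -0.89, of which that of *DUSP6* was not called. *DUSP6* stood at 0.0964, 0.112 and 0.0948 of the *DUSP5* level in the TPC-1 libraries and at 0.218, 0.211 and 0.198 in the *RRM2*-OE-TPC-1 libraries. The log2 ratio rose from -3.28 ± 0.133 to -2.23 ± 0.0679 (SD, n = 3 each), a difference of 1.04 (exact permutation test over libraries, two-sided p = 0.1, adjusted p = 0.1 over 6 ratios). This is the smallest p that 3 libraries against 3 can give, so the test cannot pass a threshold of 0.05. The log2 ratio of *DUSP5* to *DUSP4* was lower by 0.57 in the overexpressing libraries, and that of *DUSP6* to *DUSP4* was higher by 0.48, each without overlap and with the same exact permutation p of 0.1.

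The Sprouty genes were both lower. *SPRY2* (ENSG00000136158, chromosome 13 from 80335976 to 80340951, minus strand) encodes an adaptor that is itself phosphorylated after receptor activation and then blocks signaling between receptor and RAF. It had 14.3, 14.6 and 15.4 FPKM in TPC-1 and 7.65, 7.55 and 6.98 FPKM in *RRM2*-OE-TPC-1. All 3 overexpressing libraries were far below all 3 TPC-1 libraries. The mean fell to 50.1%, a log2 fold change of -0.99 (standard error 0.0528, 95% interval -1.11 to -0.87, adjusted p = 1.62e-06 from limma).

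*SPRY4* (ENSG00000187678, chromosome 5 from 142310427 to 142326455, minus strand) encodes a Sprouty protein that restrains RAS and RAF activation by growth factors. It had 5.18, 4.25 and 5.50 FPKM in TPC-1 and 3.72, 3.34 and 3.95 FPKM in *RRM2*-OE-TPC-1. TPC-1 replicate 2 was again the lowest of its group, and still above the highest overexpressing library. The log2 fold change was -0.42 (standard error 0.107, 95% interval -0.67 to -0.18, adjusted p = 0.00806 from limma). The log2 ratio of *SPRY4* to *SPRY2* went from -1.56 ± 0.174 to -0.99 ± 0.174 (SD, n = 3 each), a difference of 0.56 with no overlap between the groups (exact permutation test, p = 0.1).

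Sequence from RefSeq promoter windows is shown for 3 genes, the Sprouty genes, which were both called lower, and *DUSP6*, which was not called. The RefSeq promoter table (GRCh38) holds 9 windows for 6 of the genes, *SPRY2*, *SPRY4*, *SPRED1*, *SPRED2*, *DUSP6* and *PHLDA1*. Windows of *DUSP4*, *DUSP5*, *ETV4* and *ETV5* were not used here. Each window runs from 250 bases before a transcription start to 50 bases after it. The stretch of *SPRY2* is chr13:80341127-80341376 and ends at the base before the start, that of *SPRY4* is chr5:142324418-142324497, the part of its window before the start that GENCODE 29 gives no exon, and that of *DUSP6* is the 30 bases chr12:89352507-89352536. The *DUSP6* stretch lies wholly within GENCODE exons. All 3 stretches are on the minus strand and are written 5′ to 3′. Capitals mark a GC box (GGGCGG or its reverse complement) in the Sprouty genes and, in *DUSP6*, the reverse complement of TCAATGGA, an octamer known to be bound by the repressor CIC.
SPRY2: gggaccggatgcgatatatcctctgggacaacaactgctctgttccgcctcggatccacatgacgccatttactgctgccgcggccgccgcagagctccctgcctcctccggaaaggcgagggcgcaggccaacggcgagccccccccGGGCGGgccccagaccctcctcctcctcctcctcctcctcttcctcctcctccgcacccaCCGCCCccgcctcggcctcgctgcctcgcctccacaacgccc
SPRY4: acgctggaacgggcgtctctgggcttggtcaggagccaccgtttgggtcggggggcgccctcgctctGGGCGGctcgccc
DUSP6: cggagaatgtaTCCATTGAgacgctcgctg

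Both strands of the windows were searched for 8 motifs. The octamer TCAATGGA occurred 2 times in the *DUSP6* window, on either side of the start, and in 0.510% of all 35116 windows of the table. Both matches lie in GENCODE exons. All 250 bases before the start are exonic in the windows of *DUSP6*, *PHLDA1* and *SPRED1*, so these bases can be transcribed sequence. The 3 other spellings of the CIC octamer searched, TGAATGGA, TCAATGAA and TGAATGAA, were in none of the 9 windows, nor were the ETS site CCGGAAGT and the cyclic AMP response element TGACGTCA. The AP-1 site TGACTCA occurred 1 time, across the start of the second *SPRED2* window, against 4.95% of all windows. GC boxes were in windows of *SPRY2*, *SPRY4*, *SPRED1*, *SPRED2* and *PHLDA1*, and 45.0% of all windows hold one. The boxes of *SPRED1*, *SPRED2* and *PHLDA1* lie in GENCODE exons, and those printed above for the Sprouty genes do not. These matches describe letters in the windows, and no binding was measured. Whether CIC or any of these motifs has a part in the levels was not tested. *CIC*, described here after its values were seen, whose product represses *ETV4*, *ETV5*, *DUSP6* and *SPRY4* when ERK is inactive, had 16.3 to 17.8 FPKM in TPC-1 and 12.3 to 13.2 FPKM in *RRM2*-OE-TPC-1 (log2 fold change -0.40, adjusted p = 1.17e-04 from limma).

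Of the SPRED genes, *SPRED1* was called lower and *SPRED2* was not called. *SPRED1* (ENSG00000166068, chromosome 15 from 38252326 to 38357249, plus strand) encodes a membrane protein that brings the RAS GTPase-activating protein neurofibromin to RAS. It had 9.19, 9.18 and 9.82 FPKM in TPC-1 and 7.67, 7.41 and 7.36 FPKM in *RRM2*-OE-TPC-1, with no overlap. It fell to 79.6% of the TPC-1 mean, a log2 fold change of -0.32 (standard error 0.0483, 95% interval -0.44 to -0.21, adjusted p = 4.69e-04 from limma). *SPRED2* (ENSG00000198369, chromosome 2 from 65310851 to 65432637, minus strand), a paralog with the same role, had 13.6, 12.4 and 12.2 FPKM in TPC-1 and 11.7, 12.1 and 11.9 FPKM in *RRM2*-OE-TPC-1. The highest overexpressing library was just below the lowest TPC-1 library.

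For *SPRED2* the log2 fold change was -0.095 (95% interval -0.21 to 0.020, adjusted p = 0.124 from limma). It was called when libraries were scaled to their totals, at -0.15 with an adjusted p of 0.0173 from limma. The log2 ratio of *SPRED2* to *SPRED1* went from 0.43 ± 0.120 to 0.66 ± 0.0573 (SD, n = 3 each), a difference of 0.23 (exact permutation test, p = 0.1). *NF1*, the gene of neurofibromin, named for this role after its values were seen, was lower as well, at 7.77 to 8.16 FPKM in TPC-1 and 5.93 to 6.15 FPKM in *RRM2*-OE-TPC-1 (log2 fold change -0.39, adjusted p = 1.43e-04 from limma).

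The ETS factor genes were both lower. *ETV5* (ENSG00000244405, chromosome 3 from 186046308 to 186110318, minus strand) and *ETV4* (ENSG00000175832, chromosome 17 from 43527844 to 43579620, minus strand) encode transcription factors of the PEA3 group, which carry ERK output on to genes of growth and migration. *ETV5* had 18.0, 15.0 and 17.2 FPKM in TPC-1 and 9.90, 10.9 and 10.6 FPKM in *RRM2*-OE-TPC-1. The groups lay far apart, and the log2 fold change was -0.67 (standard error 0.0714, 95% interval -0.83 to -0.50, adjusted p = 6.89e-05 from limma). *ETV4* had 7.11, 6.22 and 6.38 FPKM in TPC-1 and 5.64, 5.21 and 5.10 FPKM in *RRM2*-OE-TPC-1. The gap between the groups was small, and the log2 fold change was -0.30 (standard error 0.0699, 95% interval -0.46 to -0.14, adjusted p = 0.00545 from limma).

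The log2 ratio of *ETV5* to *ETV4* went from 1.33 ± 0.0790 to 0.96 ± 0.142 (SD, n = 3 each), a difference of -0.37 (exact permutation test, p = 0.1). *ETV1*, the remaining PEA3 gene and not among the 10, was lower by more than either. It had 4.24, 4.47 and 4.76 FPKM in TPC-1 and 1.52, 1.66 and 1.37 FPKM in *RRM2*-OE-TPC-1, which is -1.51 on the log2 scale (standard error 0.0938, adjusted p = 3.38e-06 from limma). Exons of *DHX8* on the opposite strand, at 6.33 FPKM, share 1.89% of the exonic bases of *ETV4*, and exons of *DGKG* share 2.83% of those of *ETV5* at 0.0646 FPKM.

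*PHLDA1* (ENSG00000139289, chromosome 12 from 76025447 to 76033932, minus strand) encodes a protein with a pleckstrin homology domain and is induced by growth factors and by ERK. It was the most abundant of the 10 genes in TPC-1, with 39.4, 39.2 and 41.0 FPKM, and had 20.3, 19.4 and 19.9 FPKM in *RRM2*-OE-TPC-1. The 3 libraries of each group lay close together, with a coefficient of variation of 2.51% among the TPC-1 and 2.40% among the *RRM2*-OE-TPC-1 libraries. The log2 fold change was -1.002 (standard error 0.0358, 95% interval -1.08 to -0.92, adjusted p = 2.37e-07 from limma). Exons of *AC011611.3* and *AC011611.4* on the opposite strand cover 6.85% and 9.65% of its exonic bases, at means of 0.0867 and 0 FPKM. Its relatives were both higher. *PHLDA2*, an imprinted growth regulator, had 16.4, 15.3 and 15.8 FPKM in TPC-1 and 44.7, 47.3 and 42.2 FPKM in *RRM2*-OE-TPC-1 (log2 fold change 1.49, adjusted p = 1.69e-07 from limma). *PHLDA3*, a p53 target that inhibits AKT, had 34.0 to 34.6 FPKM in TPC-1 and 63.5 to 73.9 FPKM in *RRM2*-OE-TPC-1 (log2 fold change 0.98, adjusted p = 2.21e-06 from limma).

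**Figure D2:**
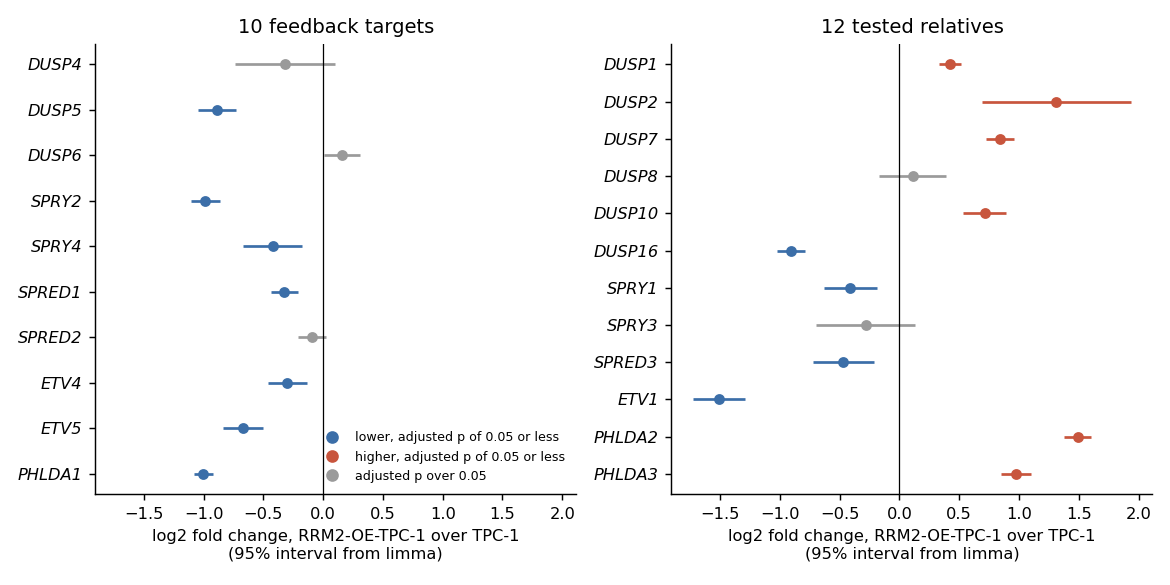
Log2 fold change of *RRM2*-OE-TPC-1 over TPC-1 with its 95% interval from limma for the 10 feedback targets (left) and 12 tested relatives (right), with lower calls in blue, higher calls in red and uncalled genes in gray. No feedback target is called higher, and 6 of the relatives are.

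**Figure D3:**
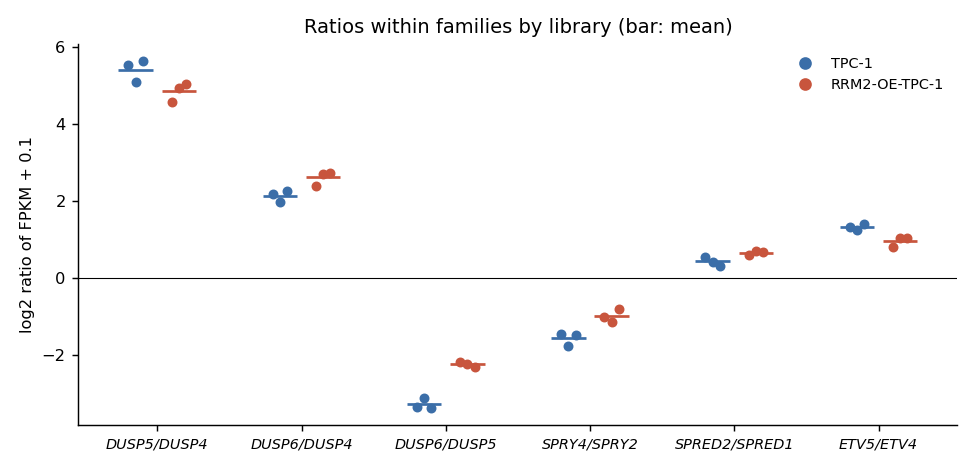
Log2 ratio of FPKM + 0.1 between members of a family in each library, TPC-1 in blue and *RRM2*-OE-TPC-1 in red, with bars at the means of 3 libraries. For each of the 6 ratios the groups do not overlap, and the largest shift, 1.04, is that of *DUSP6* to *DUSP5*. Taken singly, 72.2% of all tested genes did not overlap, and no such share was computed for pairs of genes. The 3 phosphatase ratios share their genes and are not separate results.

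In order of mean level, TPC-1 had *PHLDA1* at 39.8 and *DUSP5* at 37.5 FPKM, then *ETV5* at 16.7, *SPRY2* at 14.8, *SPRED2* at 12.7, *SPRED1* at 9.40, *ETV4* at 6.57, *SPRY4* at 4.98, *DUSP6* at 3.77 and *DUSP4* at 0.779 FPKM. The libraries of *PHLDA1* and *DUSP5* overlapped, as did those of *ETV5* and *SPRY2*, whereas other neighbors in this order did not. In *RRM2*-OE-TPC-1 the order was *DUSP5* 20.2, *PHLDA1* 19.8, *SPRED2* 11.9, *ETV5* 10.5, *SPRED1* 7.48, *SPRY2* 7.40, *ETV4* 5.32, *DUSP6* 4.22, *SPRY4* 3.67 and *DUSP4* 0.609 FPKM. There, *DUSP5* overlapped *PHLDA1* and *SPRED1* overlapped *SPRY2*. *SPRY2* thus stood 2 places lower than in TPC-1 and *SPRED2* stood 2 places higher. The summed level of the 10 genes was 152, 139 and 151 FPKM in TPC-1 and 92.0, 90.6 and 90.7 FPKM in *RRM2*-OE-TPC-1. TPC-1 replicate 2 was the lowest of its group for 6 of the 10 genes, and without it the same number of genes, 7, was called.

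**Figure D4:**
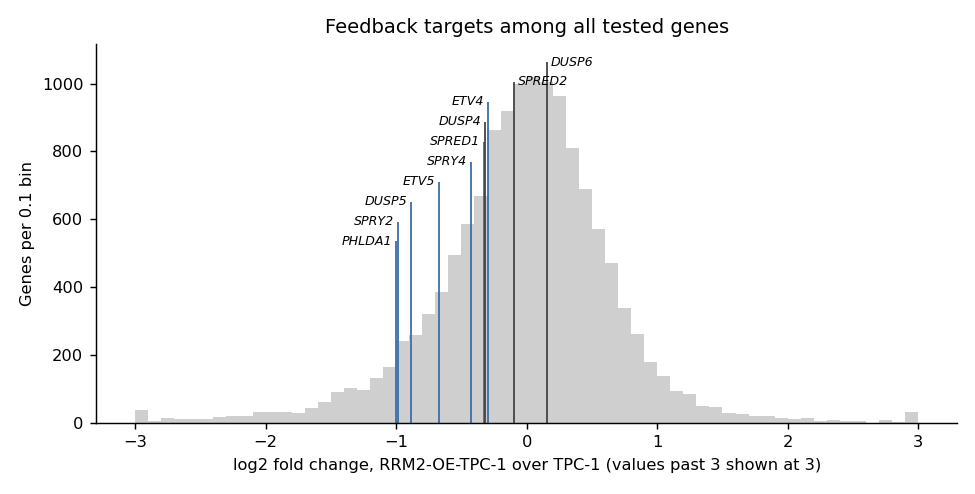
Distribution of the log2 fold change over 13621 tested genes in bins of 0.1, with lines at the 10 feedback targets, blue where called lower and dark gray where not called. 9 of the 10 lines lie below 0, and *DUSP6* lies above it at 0.16.

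The relatives of the 10 genes that belong to the same families were read from a list of 13, of which 12 were tested. Of these, 6 were higher, 4 were lower and 2 did not pass, with a median log2 fold change of 0.27; 50% of those tested were higher and 33.3% lower, against 34.9% and 32.7% of all tested genes. *SPRY1* had 1.82 to 2.09 FPKM in TPC-1 and 1.38 to 1.46 FPKM in *RRM2*-OE-TPC-1 (log2 fold change -0.41, adjusted p = 0.00566 from limma), and *SPRED3* changed by -0.47 (adjusted p = 0.00594 from limma). *SPRY3*, at -0.28, did not pass (adjusted p = 0.188 from limma), although without TPC-1 replicate 1 it did, at -0.45.

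Of 6 other phosphatases tested, 4 were higher, 1 was lower and 1 did not pass. *DUSP1*, a nuclear phosphatase that acts mainly on p38 and JNK, had 22.3 to 23.7 FPKM in TPC-1 and 29.5 to 31.2 FPKM in *RRM2*-OE-TPC-1 (log2 fold change 0.42, adjusted p = 3.53e-05 from limma). *DUSP7*, another cytoplasmic phosphatase selective for ERK, had 4.17, 4.30 and 4.31 FPKM in TPC-1 and 7.67, 7.57 and 7.92 FPKM in *RRM2*-OE-TPC-1 (log2 fold change 0.84, adjusted p = 2.86e-06 from limma). On the log2 scale *DUSP10*, which acts on JNK and p38, rose by 0.71 and *DUSP2* by 1.31 (adjusted p = 7.79e-05 and 0.00283 from limma). *DUSP2* entered the test only through its overexpressing libraries, since it was below 0.5 FPKM in every TPC-1 library. *DUSP16*, which acts on JNK and p38, was lower by -0.91 on the log2 scale, and *DUSP8* at 0.11 did not pass (adjusted p = 0.443 from limma).

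Summed by known class, a grouping made after the values were seen, the inducible nuclear phosphatases (*DUSP1*, *DUSP2*, *DUSP4* and *DUSP5*) summed to 61.3 ± 4.04 FPKM in TPC-1 and to 51.9 ± 1.21 FPKM in the overexpressing cells (SD, n = 3 each). The ERK-selective cytoplasmic ones (*DUSP6*, *DUSP7* and *DUSP9*) had 8.12 ± 0.0730 and 12.4 ± 0.0555 FPKM. Those directed at JNK and p38 (*DUSP8*, *DUSP10* and *DUSP16*) had 16.0 ± 0.354 and 15.6 ± 0.987 FPKM. *DUSP5* made up 43.9% of the summed level of all 10 phosphatases in TPC-1 and 25.3% in the overexpressing cells.

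Genes of the chain itself were called at shares not far from those of all genes. Of 28 listed genes from adaptors to ERK and its scaffolds, 25 were tested, 11 were higher, 8 were lower and 6 did not pass, with a median log2 fold change of 0.051. Of those tested 76.0% were called, 44.0% higher and 32.0% lower, against 67.6%, 34.9% and 32.7% of all tested genes. *MAPK3*, which encodes ERK1, had 27.3, 24.8 and 24.9 FPKM in TPC-1 and 12.4, 12.3 and 12.6 FPKM in *RRM2*-OE-TPC-1 (log2 fold change -1.04, adjusted p = 6.30e-07 from limma). The MEK1 gene *MAP2K1* rose from 9.82 ± 0.889 to 16.2 ± 1.03 FPKM (SD, n = 3 each; adjusted p = 5.21e-05 from limma), and the MEK2 gene *MAP2K2* had 28.2 ± 0.515 and 26.9 ± 1.09 FPKM (adjusted p = 0.154 from limma).

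Of the RAF genes, *ARAF* was higher at 0.23 on the log2 scale (adjusted p = 0.00281 from limma), while *BRAF* at -0.23 did not pass (adjusted p = 0.0714 from limma). *BRAF* and *MAP2K2* were called lower when libraries were scaled to their totals. *BRAF* was also called lower with voom, at -0.24 (adjusted p = 0.0022 from limma). *MAP2K2* was also called lower without *RRM2*-OE-TPC-1 replicate 1, at -0.10 (adjusted p = 0.0426 from limma). Among RAS genes, *HRAS* had 12.9 to 15.5 FPKM in TPC-1 and 32.4 to 33.9 FPKM in *RRM2*-OE-TPC-1 (log2 fold change 1.22, adjusted p = 1.44e-06 from limma), *NRAS* rose by 0.35 and *RRAS2* by 0.22. *MRAS*, a RAS relative that works with the scaffold SHOC2, fell by 1.14 on the log2 scale. *RRAS* at -0.099 did not pass (adjusted p = 0.300 from limma), and was lower without TPC-1 replicate 2, at -0.19.

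Restraints on the chain other than the 10 genes were also counted. Of 19 listed negative regulators, 17 were tested, 11 were lower, 4 were higher and 2 did not pass, with a median log2 fold change of -0.39. Of those tested 64.7% were lower and 23.5% higher, against 32.7% and 34.9% of all tested genes. Of the 8 genes for RAS GTPase-activating proteins, 5 were lower and 3 higher. The largest decrease among them was that of *RASAL1*, from 6.22 ± 0.345 to 1.72 ± 0.338 FPKM (SD, n = 3 each), whereas *RASA1* was higher by 0.51 on the log2 scale. *CBLB*, a ubiquitin ligase that turns receptors over, fell by 1.13 on the log2 scale. *ERRFI1*, the product of which inhibits EGFR and which is itself induced by ERK, had 57.0 to 59.9 FPKM in TPC-1 and 32.9 to 33.3 FPKM in *RRM2*-OE-TPC-1 (log2 fold change -0.81, adjusted p = 3.73e-07 from limma). *RASA1* and *ERRFI1* were picked for the text after their values were seen.

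**Figure D5:**
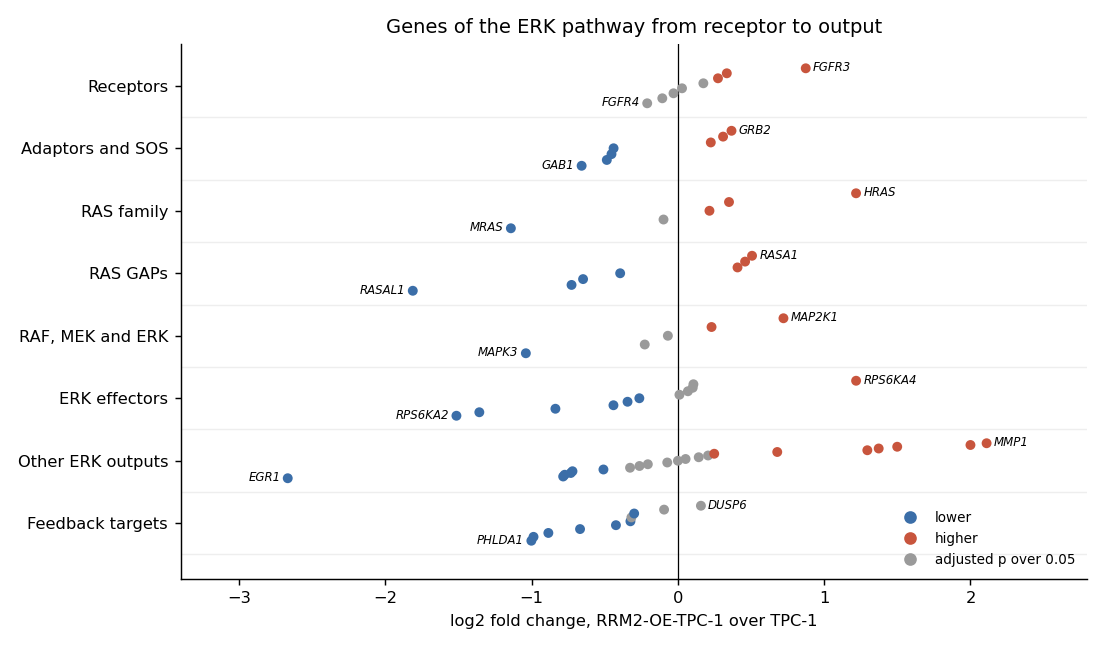
Log2 fold change of *RRM2*-OE-TPC-1 over TPC-1 for tested genes in pathway order, without a few that are not reported, from receptors at the top to the 10 feedback targets at the bottom, with lower calls in blue, higher calls in red, uncalled genes in gray and the extreme genes of each row named. Most rows hold calls on both sides of 0, and the row of feedback targets holds none on the right.

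Transcripts downstream of ERK that are not among the 10 genes were called at shares near those of all genes. Of 25 listed, 21 were tested, 7 were higher, 6 were lower and 8 did not pass, with a median log2 fold change of 3.09e-05. Of those tested 33.3% were higher and 28.6% lower, against 34.9% and 32.7% of all tested genes. *EGR1*, an immediate early gene switched on by ERK through ELK1 and SRF, had 10.2, 9.42 and 8.92 FPKM in TPC-1 and 1.04, 1.38 and 1.96 FPKM in *RRM2*-OE-TPC-1, or -2.67 on the log2 scale (standard error 0.191, adjusted p = 7.21e-06 from limma). *MYC* and *IER3*, picked after their values were seen, fell by 0.78 and 0.72 on the log2 scale. In contrast *CCND1*, the cyclin gene often read beside the 10 targets, was higher, with 72.0, 74.0 and 77.8 FPKM in TPC-1 and 187, 180 and 182 FPKM in *RRM2*-OE-TPC-1 (log2 fold change 1.29, adjusted p = 9.87e-08 from limma).

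The ephrin receptor gene *EPHA4* rose from 1.78 ± 0.257 to 4.74 ± 0.166 FPKM (SD, n = 3 each; adjusted p = 1.09e-05 from limma), whereas its relative *EPHA2* had 88.9 ± 3.78 and 88.9 ± 1.07 FPKM (95% interval of the log2 fold change -0.0874 to 0.0875, adjusted p = 0.999 from limma). *HBEGF*, which encodes a ligand of EGFR, rose from 0.999 ± 0.127 to 4.29 ± 0.460 FPKM (SD, n = 3 each), and *PLAUR*, the urokinase receptor gene, from between 4.41 and 4.66 FPKM to between 12.2 and 13.7 FPKM (adjusted p = 2.95e-06 and 2.88e-07 from limma). *MMP1* was higher by 2.11 on the log2 scale but entered the test only through its overexpressing libraries.

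Among kinases and factors listed as effectors of ERK, 11 of 12 were tested, 1 was higher, 6 were lower and 4 did not pass. Their median log2 fold change was -0.26. Of those tested 54.5% were lower and 9.1% higher, against 32.7% and 34.9% of all tested genes. *RPS6KA2*, a ribosomal S6 kinase gene, had 20.3 to 21.1 FPKM in TPC-1 and 6.85 to 7.47 FPKM in *RRM2*-OE-TPC-1 (log2 fold change -1.51, adjusted p = 1.11e-07 from limma). *MKNK2*, a kinase gene of the translation factor eIF4E, fell from 72.6 ± 3.99 to 28.2 ± 1.09 FPKM, and *RPS6KA4*, which encodes the chromatin kinase MSK2, rose from 16.6 ± 0.540 to 38.8 ± 0.448 FPKM (SD, n = 3 each; adjusted p = 2.37e-07 and 9.91e-08 from limma).

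Profiles over the 6 libraries were compared by the root mean square distance between centered log2(FPKM + 0.1) values, over 11451 protein-coding genes. Among the nearest to *PHLDA1*, the gene with the largest decrease among the 10, were *ADGRG1*, an adhesion receptor gene, at a distance of 0.0226, and *TCEA1*, a transcription elongation factor gene, at 0.0332. Their log2 fold changes were -1.02 and -0.95. Nearest to *DUSP6*, which had the highest value among the 10, were *SPHK2* at 0.0123, *NDUFV1* at 0.0145 and *MVP* at 0.0179, with log2 fold changes of 0.15, 0.14 and 0.14. None of these 5 genes is on the lists of the pathway.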

How the data were processed

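mRNA of 3 TPC-1 and 3 *RRM2*-OE-TPC-1 libraries was measured. Per the methods, reads were filtered with fastp, mapped by HISAT2 2.0.5 and counted per gene by FeatureCounts, and the authors deposited FPKM; the processing notes name GRCh38.p14. GENCODE 29 gives the same identifiers and positions for all 58735 genes. The methods describe poly(A) selection, the sample labels rRNA removal and RNase R digestion. Multiplied by the deposited gene length, FPKM values were whole multiples of 1 step per library for 100.0% of genes within 0.01, which gave the reads. Replicates differed by more than sampling noise, with a chi-square per degree of freedom of 2.92 to 3.08 between TPC-1 libraries. In *RRM2*-OE-TPC-1 it was 5.02 and 5.68 for replicate 1 against replicates 2 and 3, and 1.81 between replicates 2 and 3. No separate infections are described for the replicates, so p measures spread among libraries of the overexpressing line.

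The authors' FPKM were analysed as log2(FPKM + 0.1) with limma 3.58.1 (lmFit, eBayes with trend, Benjamini-Hochberg) in R 4.3.3; the procedure was tested on simulated data. A fold change on this scale understates that of low genes. Ratios used exact two-sided permutation tests. The members, lists and tests were chosen with earlier results of these data known. Named are the 10 genes, *RRM2*, relatives, the RAS, RAF, MEK and ERK genes, list genes past both thresholds and nearest profiles; others are stated. Sequences are from RefSeq. Some genes of the lists are not reported here.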

Additional observations from a re-analysis of the deposited data

How the results depend on the processing

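The number of the 10 genes called, 7, all lower, was the same with no filter on low values and with the FPKM minimum alone. It was also 7 with pseudocounts of 1 and 0.01, among protein-coding genes only and when any 1 library was left out. Median-of-ratios scaling gave 7 too, but the deposited values already carry nearly this scaling, so that setting could hardly differ. The number was 8 with *SPRED2* under library totals and 8 with *DUSP4* under voom. With the replicate block the number was 7, and 8934 genes in all were called against 9207; deviations of same-numbered libraries correlated at -0.055 to -0.006, no library correlated best with its own number, and the block changed no call among the 10. The number past the fold threshold, 1, was 0 with a pseudocount of 1, 0 in a test for a change above 1 (treat), 2 with library totals and 0 to 2 with a library left out. Over all genes that number was 1560, and it was 716 with a pseudocount of 1, 618 with treat, 2281 with no filter and 1573 to 1608 with a library left out. Of the 8 receptors tested, 5 were called with library totals and 5 with voom, against 3, the added calls being the lower *FGFR1* and *FGFR4*; *FGFR1* was also called without TPC-1 replicate 2 and *FGFR4* among protein-coding genes only. *EPHA2* was at -0.058 with library totals and between -0.024 and 0.034 with a library left out, and *RET* between -0.058 and 0.0081; neither was called. The median of all genes moved from 0.011 to -0.045 with library totals. The causes were not tested. Low counts limit *DUSP4* most.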

Other observations

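Of 9 receptor tyrosine kinase genes that feed the chain, 8 were tested, 0 were lower in *RRM2*-OE-TPC-1 and 3 were higher, or 37.5% against 34.9% of all tested genes. *FGFR1* at -0.11 and *FGFR4* at -0.21 on the log2 scale did not pass (adjusted p = 0.0575 and 0.0674 from limma), and both were called lower with library totals and with voom. *EGFR* had 21.4 to 22.4 FPKM in TPC-1 and 25.8 to 27.2 FPKM in *RRM2*-OE-TPC-1, *MET* 34.9 to 36.3 and 44.2 to 45.7 FPKM, and *FGFR3* 1.50 to 1.82 and 3.11 to 3.35 FPKM (log2 fold changes 0.27, 0.33 and 0.87, adjusted p = 2.81e-04, 3.68e-05 and 9.20e-05 from limma). *RET* had 7.63, 7.46 and 8.18 FPKM in TPC-1 and 7.86, 7.67 and 7.25 FPKM in *RRM2*-OE-TPC-1. These values overlapped, with a log2 fold change of -0.030 (95% interval -0.16 to 0.099, adjusted p = 0.650 from limma). *PEA15*, a protein that holds ERK in the cytoplasm, rose from 83.8 ± 2.39 to 162 ± 6.18 FPKM (SD, n = 3 each), or 0.95 on the log2 scale (adjusted p = 4.96e-07 from limma). These receptor genes and *PEA15* were picked after their values were seen.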
